A study of Homo sapiens with 30 samples.

Results

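The TGF-β family was followed through 9 genes: the ligands TGFB1, TGFB2, TGFB3 and INHBA, the receptors TGFBR1 and TGFBR2, the inhibitory SMADs SMAD6 and SMAD7, and the target gene CCN2. They were taken by gene symbol, with no threshold on their values, from the deposited tables of 61471 genes, and all 9 were among the genes tested in both lines. RNA of the human glioblastoma lines U87-MG (U87) and U251-MG (U251), both labelled WT and grown in DMEM with FBS, was sequenced in 3 cultures per group. Untreated cultures received no IFN-γ. The cultures D3, D14 and D28 were kept in it for 3, 14 and 28 days, and in D28WO it was withdrawn after 14 days and the cells grew on for 14 more. The labels give a dose of 1 µg/mL and collect the Untreated cells at day 3, while the study's methods state another dose and day. No Untreated culture was collected at day 14 or 28. In the differences of D14, D28 and D28WO from Untreated, IFN-γ and longer culture therefore cannot be told apart. Each line is 1 established culture and stands for no other tumor. U87 has 13 usable libraries, with replicates 2 and 3 at D3 and D14, because 2 columns of its table carry the same name, and U251 has 15.

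TGF-β ligands are secreted in a latent form and, once released, bind the type II receptor TGFBR2, which activates the type I receptor TGFBR1. The receptors phosphorylate SMAD2 and SMAD3, which enter the nucleus with SMAD4 and switch on target genes such as CCN2, and among these targets SMAD7 and SMAD6 act back to block the receptors. INHBA encodes the subunit of activin A, a related ligand that signals through the same SMADs, and in glioblastoma TGF-β is known for promoting invasion and restraining immune cells.

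Values are TPM, a level scaled to transcript length and to the library total that keeps no sequencing depth, so the precision of a low level is unknown. Differences are in log2(TPM + 1), a scale that understates the change of low genes, and were tested within a line with limma over the genes that averaged 0.5 TPM or more there, 22918 in U87 and 23667 in U251. To pass, a gene needed a Benjamini-Hochberg adjusted p under 0.05. The lines are in separately normalized tables, so levels set side by side across lines carry no test. RNA came from whole cultures, in which fewer cells of a type and less RNA per cell cannot be told apart.

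The libraries labelled D14 stood apart from the other IFN-γ groups in 8 interferon-responsive genes (IRF1, GBP1, GBP2, TAP1, PSMB9, B2M, CIITA and CXCL10). In U87 their summed level was 1262 to 1438 TPM in Untreated and 1267 to 1317 at D14, against 3507 to 3941 at D3, 3512 to 4117 at D28 and 4309 to 4841 at D28WO. None of the 8 genes passed with limma between D14 and Untreated of U87, and 0 had an unadjusted p under 0.05, whereas 8 of 8 were higher at D3, at D28 and at D28WO. In U251 the sum was 2096 to 2156 TPM in Untreated, 6463 to 6818 at D3, 3764 to 3828 at D14, 7702 to 7990.4 at D28 and 7329 to 7844 at D28WO, and 8 of 8 genes were lower at D14 than at D3. Thus the cultures labelled D14 in U87 showed interferon-responsive RNA at the Untreated level, and those labelled D28WO in both lines showed it near the level of D28. Whether each label matches its treatment was not tested. Each value at D14 or D28WO below is that of the libraries so labelled. The results at D3 and D28 were also fitted without the D14 and D28WO libraries. For the TGF-β family genes introduced above, those fits are given below wherever they changed a call. Among the named differences of other genes of the pathway, 17 lost their call in those fits. Of these only some are given by gene below, and the rest enter as counts.

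**Figure D1:**
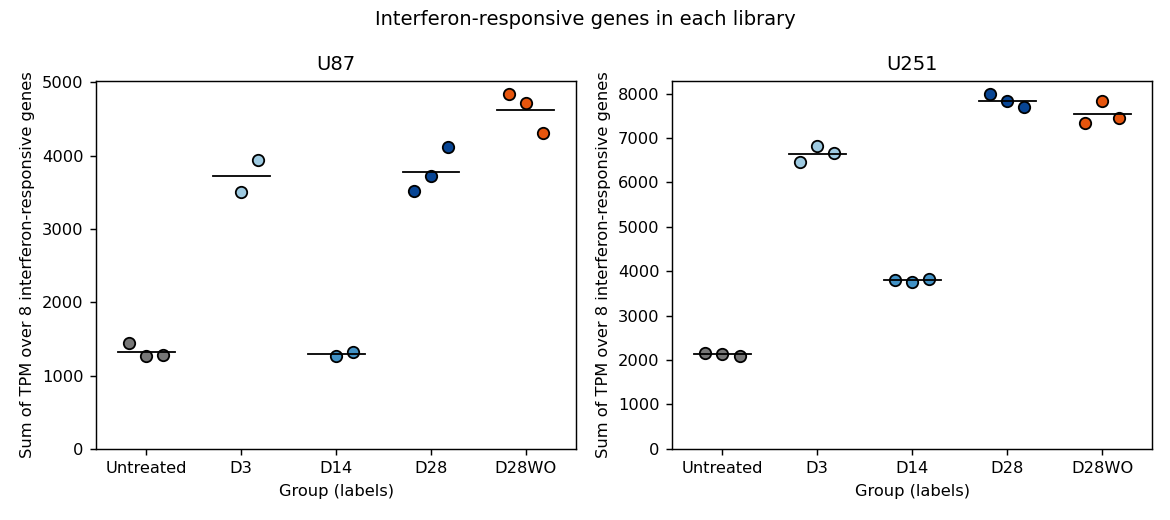
Sum of TPM over 8 interferon-responsive genes (vertical axis) in each library (points), by labelled group (horizontal axis), with group means as bars. The D14 libraries of U87 lie at 1267 to 1317 TPM, among the Untreated libraries, and those of U251 at 3764 to 3828 TPM, between Untreated and D3.

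Markers of glioma cells matched the lines in part. VIM ranged over 984 to 1459 TPM in U87 and 599 to 1161 TPM in U251, and CD44 over 471 to 732 and 394 to 864 TPM. SOX2 reached at most 0.411 TPM in U87, where GFAP was also low, while U251 held SOX2 at 105 to 176 TPM and GFAP at 222 to 1309 TPM. In U87, 5 of the 6 glioma markers were tested. At D28WO, GFAP and OLIG2 were higher and VIM, NES and CD44 lower than in Untreated. The summed level of all 6 was 1944 to 2169 TPM in the Untreated libraries and 1516 to 1665 TPM in those of D28WO, and between 1761 and 1946 TPM in the other IFN-γ groups. Of 9 markers of leukocytes, endothelium, oligodendrocytes and neurons, AIF1 was at 0 in each U87 library and CD3E reached at most 0.308 TPM in either line, while CSF1R reached 59.99 TPM in U87, and MBP and CDH5 reached 43.8 and 31.03 TPM in U251. The summed level of these 9 was 60.6 to 63.1 TPM in Untreated U87 and 19.1 to 26.8 TPM at D28WO, a fall carried by CSF1R. In U251 it was 51.5 to 58.1 TPM in Untreated and 31.2 to 52.2 TPM in the IFN-γ groups, where CDH5 fell from 27.6 ± 3.06 to 0.565 ± 0.0806 TPM at D3. Of the 6 of these markers tested in U251, 3 were higher (CD14, MBP and RBFOX3) and 1 lower at D3. The part of these genes in the results below was not tested.

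In U251, CCN2, INHBA and the inhibitory SMADs had the largest differences of the members. The matrix protein gene CCN2 fell in each of the 4 groups compared with Untreated, to 0.345 of its Untreated mean TPM at D3, and SMAD6 and SMAD7 rose together, to 2.62 and 2.39 times at D28. INHBA and TGFBR2 rose during exposure and were back near the Untreated level at D28WO, and TGFB2 fell late, at D28 and D28WO. In U87 the inhibitory SMADs did not pass in any comparison of the main fit, though both passed as lower at D28WO than in Untreated under 2 other scalings. There TGFB1, TGFBR2 and CCN2 fell at D3 and at D28WO, TGFB1 also at D28, and TGFB3 fell at D28WO alone. INHBA rose at D3, fell at D28 and was higher at D28WO than at D28. Higher levels also passed for TGFB2 at D3, D28 and D28WO and for TGFBR1 at D28. The upward calls against Untreated ended under other scalings, and those of CCN2 at D3 and TGFB1 at D28 under several alternatives. The difference in response between the lines was not tested.

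Of the 9 genes in U87, 2 were higher and 3 lower at D3 than in Untreated, where 12.4% of all genes tested passed higher and 4.28% lower. At D14 no member passed with limma in either direction (background 4.14% higher and 1.02% lower), 2 members had an unadjusted p under 0.05 (TGFB2 and INHBA), and no alternative setting gave a call. At D28, 2 were higher and 2 lower (17.2% and 6.55% of all genes), and at D28WO, 1 was higher and 4 lower (28.6% and 13.4%). From D3 to D14, 1 member rose and 1 fell (1.47% and 3.32%), and from D14 to D28 none passed (2.94% and 1.12%), with 1 member, TGFB1, at an unadjusted p under 0.05. From D28 to D28WO, 1 was higher and 3 lower (9.9% and 8.44%). For D3, D14, D28 and D28WO in turn, the members had a median difference from Untreated of -0.20, 0.10, 0.15 and -0.46, beside 0.20, 0.15, 0.19 and 0.25 over all genes tested. Quantile normalization brought the median of all genes to -0.02, -0.01, -0.03 and -0.02 for these groups, and no member passed in the upward direction: the split of higher and lower members was 0 and 3 at D3, 0 and 2 at D28 and 0 and 6 at D28WO. With median-ratio size factors it was 0 and 3, 0 and 4, and 0 and 6. A fit of D3 and Untreated alone kept TGFB1 and ended the calls of TGFB2, INHBA, TGFBR2 and CCN2 (adjusted p = 0.063, 0.106, 0.0789 and 0.144), and a fit of D28 and Untreated alone ended those of TGFB1 and INHBA (0.0798 and 0.0701).

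In U251, 4 members were higher and 2 lower at D3 than in Untreated, where 24.9% and 16% of all genes passed. At D14, 4 were higher and 1 lower (13.8% and 7.31%), at D28, 5 were higher and 2 lower (25.9% and 14.7%), and at D28WO, 1 was higher and 2 lower (14.3% and 13.4%). From D3 to D14, 1 rose and 1 fell (12.8% and 12.6%), from D14 to D28, 3 rose and 2 fell (11.3% and 9.48%), and from D28 to D28WO none rose and 6 fell (10.3% and 18.8%). In the same order of groups the members had a median difference from Untreated of 0.12, 0.02, 0.44 and -0.17, beside 0.13, 0.096, 0.16 and 0.015 over all genes, and from D28 to D28WO it was -0.71 beside -0.12. Under quantile normalization the split was 4 and 3 at D3, 2 and 2 at D14 and 4 and 3 at D28, and with size factors 4 and 3, 3 and 2, and 5 and 3. The 4 comparisons with Untreated share the same Untreated libraries in each line, so their values stand side by side and are not independent of each other.

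**Figure D2:**
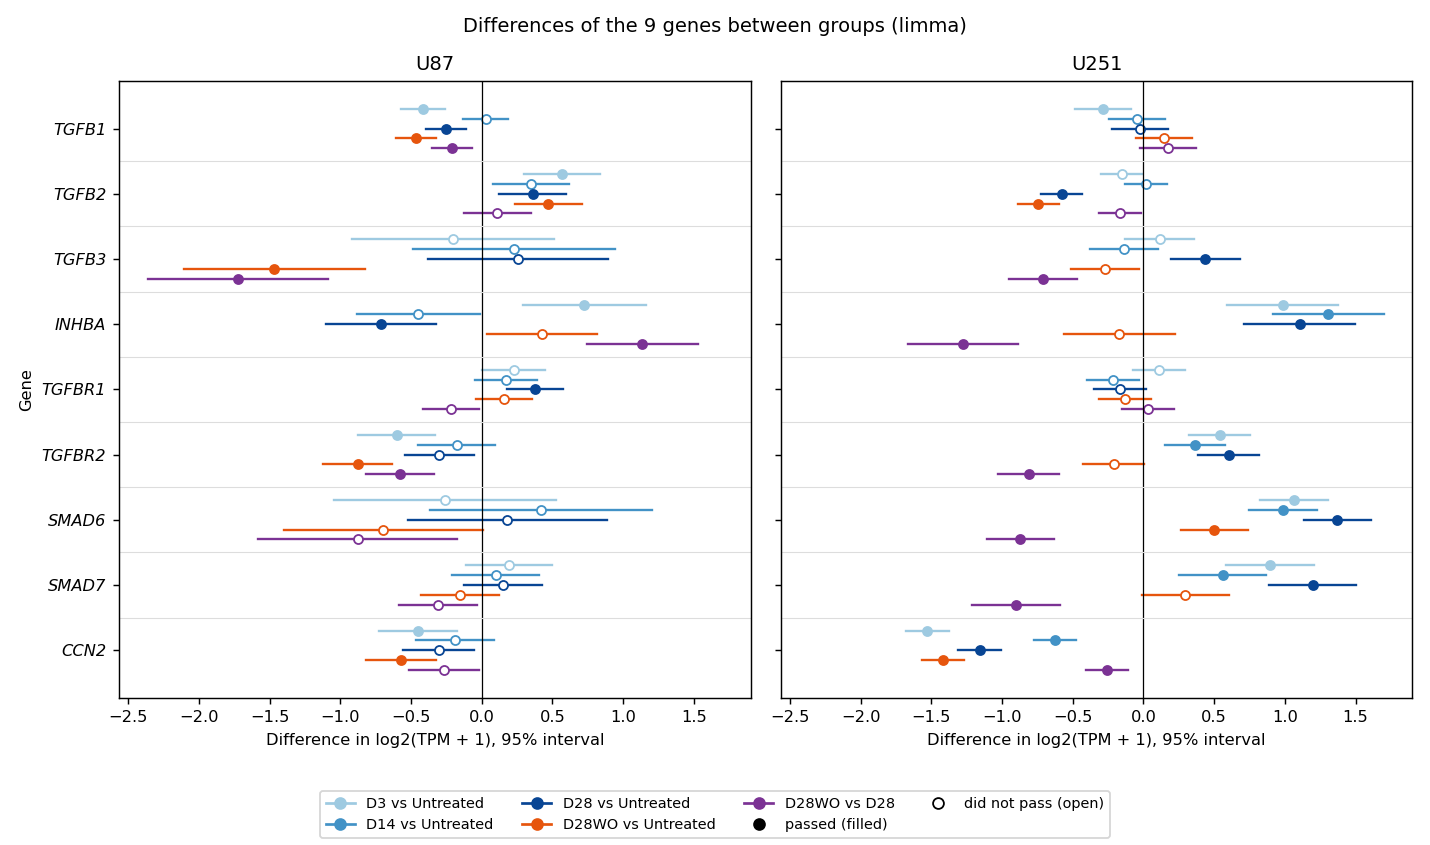
Difference in log2(TPM + 1) of the 9 genes (rows) in U87 (left) and U251 (right), with 95% intervals as lines, for 5 comparisons (colors); filled points passed and open points did not. CCN2 of U251 lies at -1.53 at D3 and -1.42 at D28WO, SMAD6 of U251 at 1.37 at D28, and TGFB3 of U87 at -1.47 at D28WO; U87 points to the right of 0 that passed against Untreated lost their call under both other scalings.

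The order of the levels differed between the lines. In Untreated U251, CCN2 stood highest, at 287 ± 9.60 TPM (SD, n = 3), followed by TGFB1 (106 ± 3.20), TGFB2 (66.3 ± 1.36), TGFBR1 (40.4 ± 0.754), TGFBR2 (37.9 ± 2.69), SMAD6 (37.0 ± 4.45), TGFB3 (23.1 ± 2.33), SMAD7 (11 ± 1.80) and INHBA (4.79 ± 1.25). Libraries of TGFBR1 and TGFBR2 overlapped, as did those of TGFBR2 and SMAD6, and the other neighbors did not. By D28 the order was CCN2, TGFB1, SMAD6, TGFBR2, TGFB2, TGFBR1, TGFB3, SMAD7 and INHBA, with TGFB1 and SMAD6 overlapping, so SMAD6 had moved from the sixth to the third place. In D28WO of U251, TGFB1 (118 ± 2.97 TPM) lay above CCN2 (107 ± 1.41 TPM) in each library.

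In Untreated U87, TGFB1 stood highest, at 159 ± 7.96 TPM (SD, n = 3), followed by TGFBR2 (129 ± 17.5), CCN2 (60.1 ± 5.34), TGFBR1 (54.5 ± 1.21), SMAD7 (30.3 ± 1.29), TGFB2 (23.6 ± 1.00), SMAD6 (21.2 ± 6.81), TGFB3 (10.3 ± 1.96) and INHBA (7.02 ± 0.605). CCN2 and TGFBR1 overlapped, and so did TGFB2 and SMAD6. At D3 and at D28WO INHBA lay above TGFB3 in U87, without overlap, the reverse of the Untreated order.

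**Figure D3:**
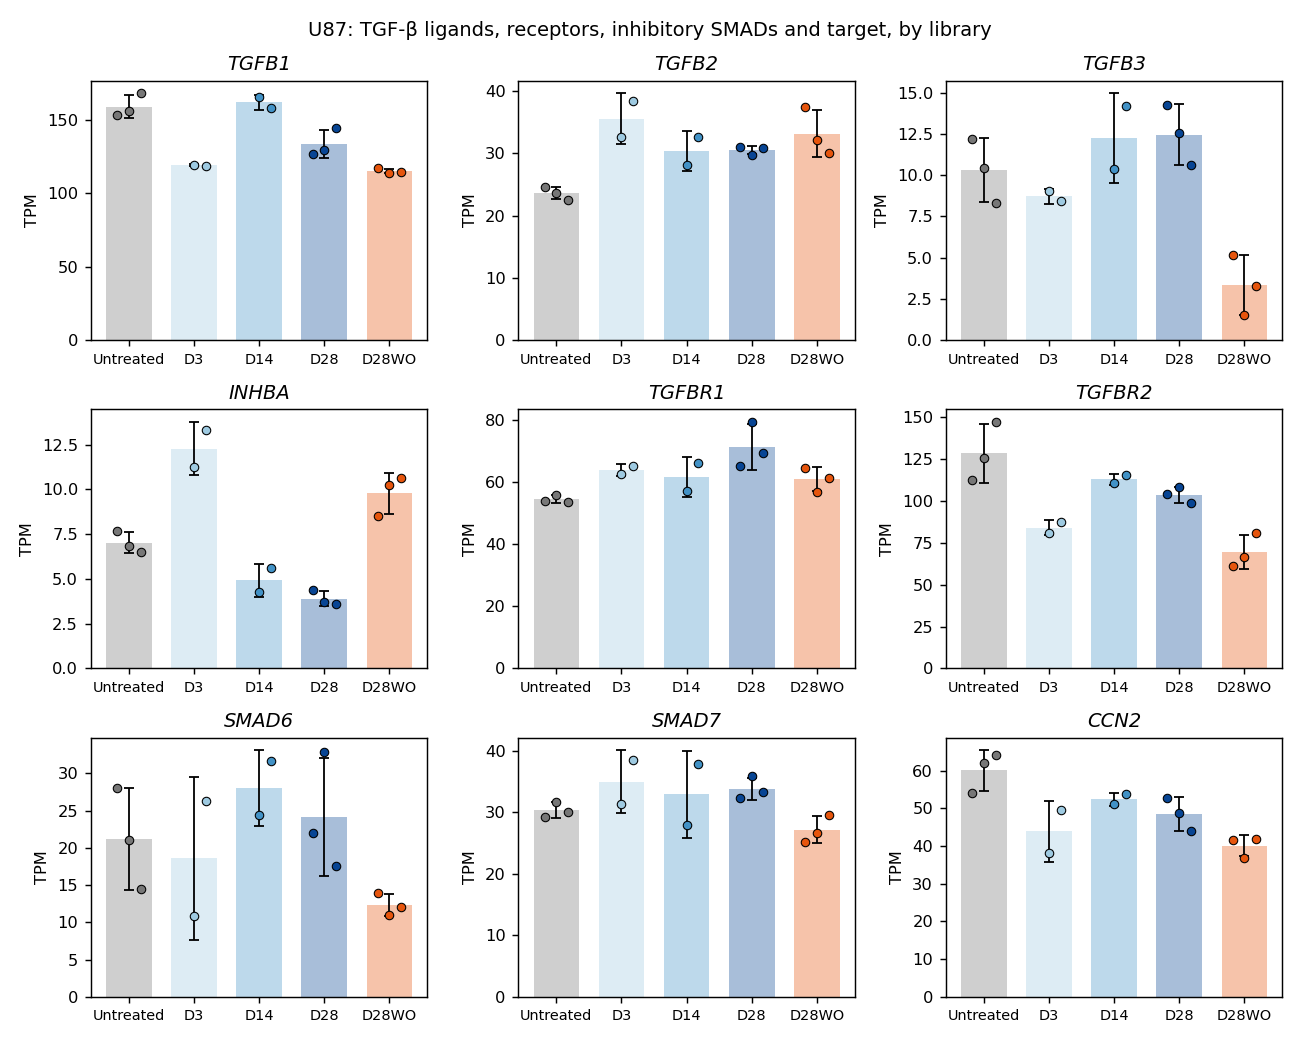
TPM of the 9 genes in U87 by group, with each library as a point, group means as bars and SD as error lines (2 libraries at D3 and D14, 3 elsewhere). TGFB3 falls to 1.5 to 5.18 TPM at D28WO, and INHBA is above Untreated at D3 and below it at D28.

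**Figure D4:**
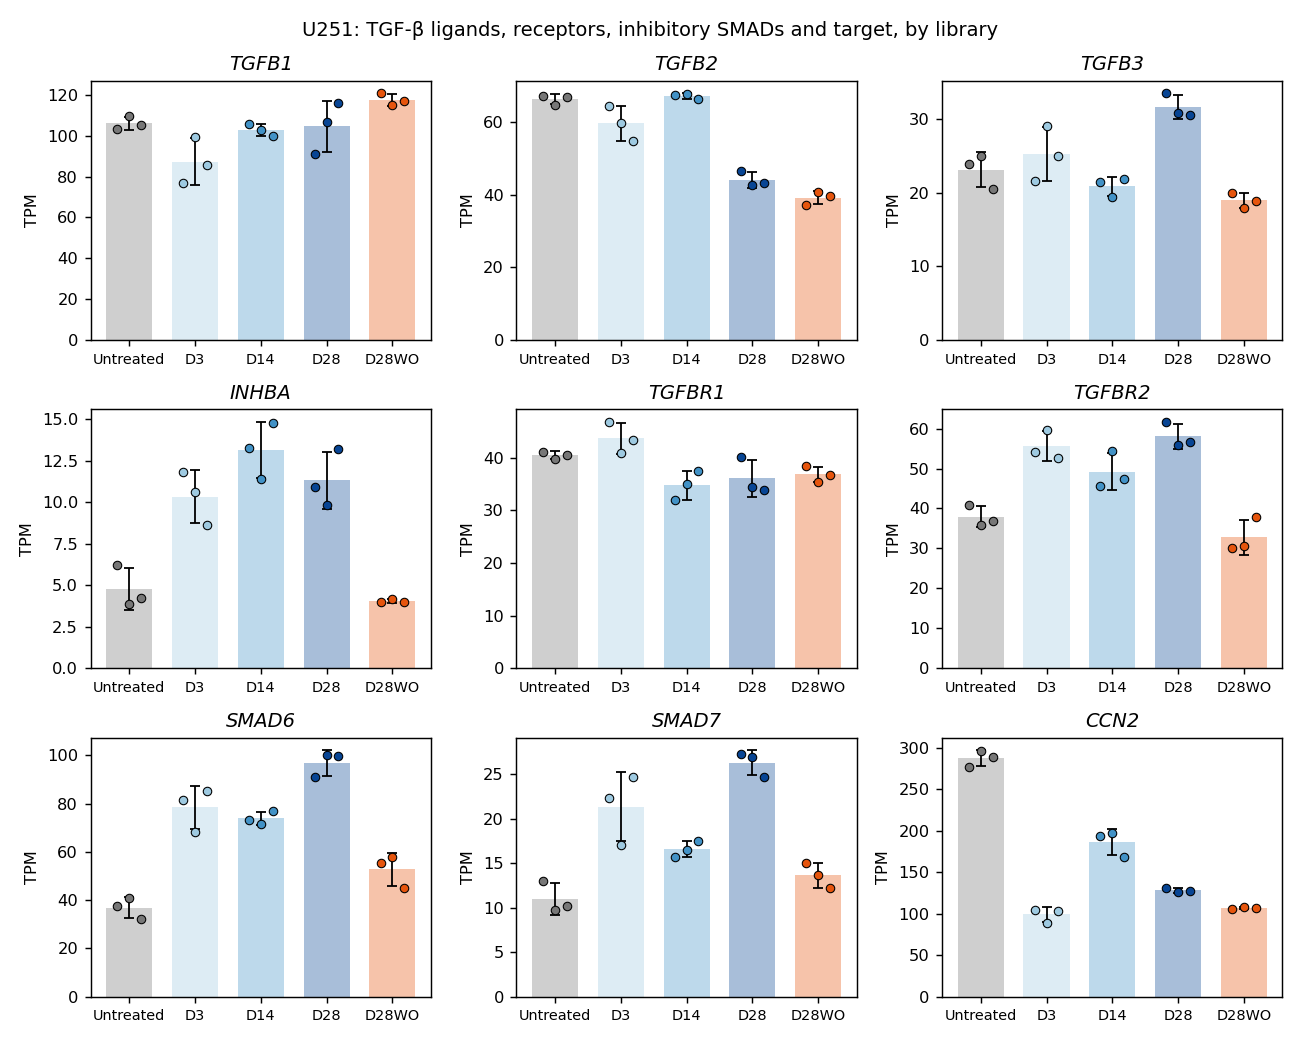
TPM of the 9 genes in U251 by group, with each of the 3 libraries as a point, group means as bars and SD as error lines. CCN2 lies at 277 to 296 TPM in Untreated and at 89.2 to 105 TPM at D3, and SMAD6 rises from 32.2 to 41.0 TPM to 90.8 to 100.2 TPM at D28.

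TGFB1 (chr19:41301587-41353922, minus strand, GRCh38) encodes the best known of the 3 TGF-β ligands. In U87 it was at 153, 156 and 168 TPM in Untreated, 119.6 and 119 at D3, 166 and 159 at D14, 127, 129.8 and 144 at D28, and 117, 114 and 115 at D28WO. The D3, D28 and D28WO libraries lay below each Untreated library, while those of D14 lay among them. The difference from Untreated was -0.41 at D3 (95% interval -0.57 to -0.26, adjusted p = 0.00308), 0.03 at D14 (-0.13 to 0.19, adjusted p = 0.87), -0.25 at D28 (-0.39 to -0.11, adjusted p = 0.0161) and -0.46 at D28WO (-0.60 to -0.32, adjusted p = 0.000167). It rose by 0.44 from D3 to D14 (adjusted p = 0.00701) and fell by 0.21 from D28 to D28WO (adjusted p = 0.0427). The D28 call ended without Untreated replicate 3 or D28 replicate 1 or 2 (adjusted p = 0.0579, 0.0549 and 0.056) and without the D14 and D28WO libraries (0.0504). That from D3 to D14 ended without D3 replicate 2 or D14 replicate 2 (0.0513 and 0.0704), and that from D28 to D28WO without any of 5 of the 6 libraries (0.0644 to 0.132).

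TGFB1 in U251 was at 104, 109.8 and 105 TPM in Untreated, 77.0, 99.6 and 85.6 at D3, 106, 103 and 100.03 at D14, 91.3, 107 and 116 at D28, and 121, 115 and 117 at D28WO. Lower values without overlap were seen at D3, and the D28WO libraries lay above Untreated by a difference that did not pass in the main fit. The difference from Untreated was -0.29 at D3 (-0.48 to -0.09, adjusted p = 0.0231) and 0.15 at D28WO (-0.05 to 0.34, adjusted p = 0.277). In a fit of the compared groups alone the D28WO difference passed (adjusted p = 0.0405). The D3 call ended without Untreated replicate 2 (adjusted p = 0.0732), D3 replicate 1 (0.109) or D3 replicate 3 (0.059), and without the D14 and D28WO libraries (0.0741).

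TGFB2 (chr1:218345336-218444619, plus strand) encodes the isoform that glioblastoma cells are known to secrete, and its differences from Untreated had opposite signs in the lines at D3, D28 and D28WO. U87 held 24.6, 23.7 and 22.6 TPM in Untreated, 32.6 and 38.5 at D3, 28.2 and 32.6 at D14, 31.1, 29.8 and 30.8 at D28, and 37.4, 32.1 and 30.1 at D28WO. Each IFN-γ library of U87 lay above each Untreated library. The difference was 0.57 at D3 (0.30 to 0.83, adjusted p = 0.00981), 0.35 at D14 (0.08 to 0.62, adjusted p = 0.117), 0.36 at D28 (0.12 to 0.60, adjusted p = 0.0331) and 0.47 at D28WO (0.23 to 0.71, adjusted p = 0.00465). These calls depended on the scaling: under quantile normalization the differences were 0.29 at D3, 0.08 at D28 and 0.13 at D28WO (adjusted p = 0.173, 0.697 and 0.395). The D28 call ended without any single library of its 2 groups (adjusted p = 0.0537 to 0.0966), and the D3 call without D3 replicate 3 (0.0808).

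In U251, TGFB2 was at 67.3, 64.8 and 67.0 TPM in Untreated, 64.3, 59.7 and 54.9 at D3, 67.4, 67.8 and 66.3 at D14, 46.7, 42.6 and 43.2 at D28, and 37.3, 40.7 and 39.7 at D28WO. The 6 libraries of D28 and D28WO lay below all others, and those of D14 lay within or just above the Untreated ones. TGFB2 fell by 0.58 at D28 (95% interval of the difference -0.72 to -0.43, adjusted p = 1.28e-05) and by 0.74 at D28WO (-0.89 to -0.60, adjusted p = 1.93e-06), and from D14 to D28 by 0.59 (adjusted p = 2.96e-05). The difference at D3 was -0.15 (-0.30 to -0.01, adjusted p = 0.0866), and it passed without D3 replicate 1 (0.0326), with quantile normalization (-0.19, adjusted p = 0.0308) and with size factors (-0.25, adjusted p = 0.00909).

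TGFB3 (chr14:75958097-75983011, minus strand) is the least abundant TGF-β isoform in both lines. U87 had 12.2, 10.4 and 8.29 TPM in Untreated, 9.03 and 8.40 at D3, 10.3 and 14.2 at D14, 14.3, 12.5 and 10.6 at D28, and 5.18, 1.5 and 3.30 at D28WO. The D28WO libraries lay below all other U87 libraries, and the remaining groups overlapped with Untreated. TGFB3 fell at D28WO by 1.47 against Untreated (-2.10 to -0.83, adjusted p = 0.00183) and by 1.72 against D28 (-2.36 to -1.09, adjusted p = 0.00212). In U251 the values were 23.9, 25.0 and 20.5 TPM in Untreated, 21.6, 29.0 and 25.0 at D3, 21.5, 19.4 and 21.8 at D14, 33.5, 30.8 and 30.6 at D28, and 20.0, 18.0 and 18.8 at D28WO. The D28 libraries of U251 were the highest of the line. TGFB3 of U251 rose at D28 by 0.44 against Untreated (0.20 to 0.68, adjusted p = 0.00677) and by 0.58 against D14 (adjusted p = 0.00236), and was lower at D28WO than at D28 by 0.71 (difference -0.71, -0.95 to -0.47, adjusted p = 0.000363). Under quantile normalization the rise over Untreated was 0.28 and did not pass (adjusted p = 0.0731). At D28WO the libraries of U251 lay below Untreated, with a difference of -0.27 (-0.51 to -0.03, adjusted p = 0.0917). That difference passed with array weights (0.0249) and without Untreated replicate 3 (0.0499).

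INHBA (chr7:41667168-41705834, minus strand) changed in both lines, with opposite signs at D28. U87 held 7.70, 6.84 and 6.53 TPM in Untreated, 11.2 and 13.3 at D3, 4.24 and 5.58 at D14, 4.36, 3.73 and 3.60 at D28, and 8.49, 10.2 and 10.6 at D28WO. The D3 and D28WO libraries of U87 lay above Untreated and those of D14 and D28 below, with no overlap. INHBA rose by 0.73 at D3 (0.29 to 1.16, adjusted p = 0.0296) and fell by 0.71 at D28 (-1.10 to -0.32, adjusted p = 0.0147). The difference was -0.45 at D14 (-0.88 to -0.01, adjusted p = 0.206) and 0.42 at D28WO (0.03 to 0.81, adjusted p = 0.0757). Between neighboring groups it fell by 1.17 from D3 to D14 (adjusted p = 0.0089) and was 1.14 higher at D28WO than at D28 (0.75 to 1.53, adjusted p = 0.00137). The rise at D3 rested on few libraries: it ended without Untreated replicate 2 or 3, or D3 replicate 2 or 3 (adjusted p = 0.0551, 0.075, 0.0855 and 0.154), without the D14 and D28WO libraries (0.0674), with a replicate block (0.0501), and under quantile normalization (difference 0.27, adjusted p = 0.425). The fall from D3 to D14 ended without D3 replicate 3 or D14 replicate 2 (0.0693 and 0.0865).

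INHBA in U251 was at 6.22, 3.90 and 4.24 TPM in Untreated, 11.8, 10.6 and 8.62 at D3, 13.3, 11.4 and 14.8 at D14, 10.9, 9.85 and 13.2 at D28, and 4.02, 4.19 and 3.97 at D28WO. The 9 libraries under continued exposure all lay above Untreated, and the D28WO libraries lay within the Untreated range. It rose by 0.98 at D3 (0.59 to 1.38, adjusted p = 0.000661), by 1.31 at D14 (0.91 to 1.70, adjusted p = 0.0002) and by 1.10 at D28 (0.71 to 1.5, adjusted p = 0.000265). At D28WO the difference from Untreated was -0.17 (-0.56 to 0.22, adjusted p = 0.547), and INHBA fell by 1.28 from D28 to D28WO (-1.67 to -0.88, adjusted p = 0.000157). From D3 to D14 the difference of INHBA was 0.32 (adjusted p = 0.221), while interferon-responsive genes were lower at D14.

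TGFBR1 (chr9:99104038-99154192, plus strand) encodes the type I receptor, which phosphorylates the SMADs. In U87 it was at 53.9, 55.9 and 53.8 TPM in Untreated, 62.5 and 65.3 at D3, 57.0 and 66.3 at D14, 65.3, 79.5 and 69.3 at D28, and 64.6, 56.9 and 61.5 at D28WO. Each IFN-γ library of U87 lay above each Untreated library, yet TGFBR1 passed at D28 alone, with a difference of 0.38 (0.18 to 0.58, adjusted p = 0.012). With median-ratio size factors that difference was 0.19 and did not pass (adjusted p = 0.154). U251 held 41.1, 39.6 and 40.5 TPM in Untreated, 46.8, 40.9 and 43.4 at D3, 31.9, 35.0 and 37.4 at D14, 40.03, 34.3 and 33.8 at D28, and 38.3, 35.4 and 36.7 at D28WO. TGFBR1 of U251 passed in no comparison with Untreated and fell by 0.32 from D3 to D14 (adjusted p = 0.0132), a call that ended without D3 replicate 1 or D14 replicate 1 (0.0554 and 0.0586). For D3, D14, D28 and D28WO its differences from Untreated were 0.11, -0.22, -0.17 and -0.13. Those at D14 and D28 passed with median-ratio size factors (-0.30 and -0.28, adjusted p = 0.0202 and 0.0174).

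TGFBR2 (chr3:30606601-30694142, plus strand), the type II receptor that binds the ligand, differed from Untreated with opposite signs in the lines at D3 and D28 and fell from D28 to D28WO in both. U87 held 113, 126 and 147 TPM in Untreated, 80.9 and 87.2 at D3, 111 and 115 at D14, 104, 108 and 98.8 at D28, and 61.4, 66.4 and 80.8 at D28WO. The D3, D28 and D28WO libraries of U87 lay below Untreated, and D14 overlapped with it. TGFBR2 fell by 0.60 at D3 (-0.87 to -0.33, adjusted p = 0.00834) and by 0.88 at D28WO (-1.12 to -0.63, adjusted p = 8.72e-05), and by 0.58 from D28 to D28WO (-0.82 to -0.33, adjusted p = 0.00444). The difference at D28 was -0.30 (-0.54 to -0.06, adjusted p = 0.0727), and it passed with median-ratio size factors (-0.48, adjusted p = 0.0282), with a replicate block (0.0478) and without Untreated replicate 1 (0.0391). The fall at D3 did not pass without D3 replicate 2 (adjusted p = 0.0854).

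TGFBR2 in U251 was at 41.0, 35.9 and 36.9 TPM in Untreated, 54.2, 59.8 and 52.6 at D3, 45.7, 54.5 and 47.3 at D14, 61.7, 55.9 and 56.7 at D28, and 30.0, 30.6 and 37.8 at D28WO. The libraries of D3, D14 and D28 lay above Untreated, and D28WO overlapped with it. The receptor rose by 0.54 at D3 (0.32 to 0.75, adjusted p = 0.000658), by 0.36 at D14 (0.15 to 0.58, adjusted p = 0.0187) and by 0.60 at D28 (0.39 to 0.82, adjusted p = 0.000269), and fell by 0.81 from D28 to D28WO (-1.03 to -0.60, adjusted p = 4.37e-05). The D14 call ended without Untreated replicate 2 or 3 or D14 replicate 2 (adjusted p = 0.0714, 0.0603 and 0.0835) and with median-ratio size factors (0.0764). Against Untreated the D28WO difference was -0.21 (-0.42 to 0.01, adjusted p = 0.143), and without D28WO replicate 3 it was -0.31 and passed (0.0332).

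SMAD6 (chr15:66702236-66782849, plus strand) encodes an inhibitory SMAD that acts mainly on BMP receptors. Its promoter is shown because it was the single promoter among the members that held the palindromic SMAD element GTCTAGAC, to which SMAD3 and SMAD4 are known to bind. The 250 bases before its start site (RefSeq, GRCh38.p14, chr15:66701986-66702235, plus strand) read, with the element in capitals:
SMAD6: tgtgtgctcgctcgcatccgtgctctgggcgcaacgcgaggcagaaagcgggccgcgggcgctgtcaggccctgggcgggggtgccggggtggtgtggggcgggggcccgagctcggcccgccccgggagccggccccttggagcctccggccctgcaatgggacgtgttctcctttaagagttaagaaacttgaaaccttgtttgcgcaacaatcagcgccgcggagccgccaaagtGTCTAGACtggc

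The element starts 12 bases before the SMAD6 start site and reads the same on both strands. It is found in 0.202% of the 35116 RefSeq promoter windows of 300 bases (250 before and 50 after a start). The 20 windows of the 9 members, several of them alternative starts, were searched on both strands with 2 further motifs: the IRF site GAAANNGAA (8.11% of all windows) and the TEAD site GGAATG (14% of all windows). No member window held the IRF letters, which says only that these letters are not in these windows. Such matches describe the sequence and do not show binding.

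In U251, SMAD6 was at 37.6, 41.0 and 32.2 TPM in Untreated, 81.6, 68.3 and 85.3 at D3, 73.1, 71.7 and 77.0 at D14, 90.8, 100.2 and 99.5 at D28, and 55.5, 57.8 and 44.9 at D28WO. Each IFN-γ library lay above each Untreated library, and the D28WO libraries lay between Untreated and the other groups. SMAD6 rose by 1.07 at D3 (0.83 to 1.31, adjusted p = 4.18e-06), 0.99 at D14 (0.75 to 1.23, adjusted p = 3.22e-05), 1.37 at D28 (1.13 to 1.61, adjusted p = 3.41e-07) and 0.50 at D28WO (0.26 to 0.74, adjusted p = 0.00379). It rose by 0.38 from D14 to D28 (adjusted p = 0.025) and fell by 0.87 from D28 to D28WO (-1.11 to -0.63, adjusted p = 6.06e-05). The step from D14 to D28 did not pass without D14 replicate 1 or 2 or D28 replicate 2 or 3 (adjusted p = 0.0624, 0.0786, 0.0832 and 0.0742).

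The same gene in U87 was at 28.1, 21.0 and 14.5 TPM in Untreated, 10.8 and 26.3 at D3, 24.4 and 31.6 at D14, 22, 32.9 and 17.6 at D28, and 13.9, 11 and 12 at D28WO. Its libraries scattered widely within groups, and only those of D28WO lay below Untreated. SMAD6 passed in no comparison of U87: the difference was -0.26 at D3 (-1.04 to 0.53, adjusted p = 0.659), 0.18 at D28 (-0.52 to 0.88, adjusted p = 0.724) and -0.70 at D28WO (-1.40 to 0.01, adjusted p = 0.103). The D28WO difference passed with quantile normalization (-1.12, adjusted p = 0.012), size factors (-0.91, adjusted p = 0.0277) and array weights (-0.82, adjusted p = 0.0437).

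SMAD7 (chr18:48919853-48950965, minus strand) encodes the inhibitory SMAD that recruits ubiquitin ligases to the TGF-β type I receptor. U251 held 13, 9.75 and 10.1 TPM in Untreated, 22.3, 17.0 and 24.6 at D3, 15.7, 16.5 and 17.5 at D14, 27.2, 26.9 and 24.7 at D28, and 15, 13.7 and 12.2 at D28WO. D3, D14 and D28 lay above Untreated, D28 highest, and D28WO overlapped with Untreated. SMAD7 rose by 0.89 at D3 (0.58 to 1.20, adjusted p = 0.000216), 0.56 at D14 (0.25 to 0.87, adjusted p = 0.0134) and 1.20 at D28 (0.89 to 1.51, adjusted p = 1.59e-05), with 0.30 at D28WO (-0.01 to 0.61, adjusted p = 0.153). It rose by 0.64 from D14 to D28 (adjusted p = 0.00611) and fell by 0.90 from D28 to D28WO (-1.21 to -0.59, adjusted p = 0.000384). The D14 call ended without Untreated replicate 2 or D14 replicate 3 (adjusted p = 0.0579 and 0.0517), and with quantile normalization (0.0526).

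In U87, SMAD7 was at 29.2, 31.8 and 30.0 TPM in Untreated, 31.4 and 38.6 at D3, 27.9 and 37.9 at D14, 32.3, 35.9 and 33.4 at D28, and 25.2, 26.7 and 29.6 at D28WO. The groups overlapped with Untreated except D28, which lay just above it. SMAD7 passed in no U87 comparison, with 0.19 at D3 (-0.11 to 0.50), 0.10 at D14 (-0.21 to 0.41), 0.15 at D28 (-0.12 to 0.43) and -0.16 at D28WO (-0.43 to 0.12). The upper ends of these intervals lie below the rises of SMAD7 in U251 at D3 and D28, 0.89 and 1.20, a difference between lines that was not tested. At D28WO it was -0.48 and passed with quantile normalization (adjusted p = 0.00911), and -0.38 with size factors (0.0303).

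CCN2 (chr6:131948176-131951372, minus strand), also known as CTGF, encodes a secreted matrix protein and is a target of both TGF-β signaling and the YAP-TEAD factors. Its promoter is shown because CCN2 had the largest fall of the members in U251 and the TEAD letters occur in it 3 times. The 250 bases before its start site (RefSeq, GRCh38.p14, chr6:131951373-131951622, minus strand) read, with GGAATG in capitals:
CCN2: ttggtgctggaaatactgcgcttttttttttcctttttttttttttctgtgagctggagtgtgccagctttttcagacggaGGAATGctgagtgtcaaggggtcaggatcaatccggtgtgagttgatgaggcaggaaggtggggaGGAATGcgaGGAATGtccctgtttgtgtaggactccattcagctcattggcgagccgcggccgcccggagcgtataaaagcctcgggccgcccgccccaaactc

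The matches begin 169, 104 and 95 bases before the CCN2 start site. Single matches were found in a TGFB2 window, 185 bases before its start, and in an alternative TGFBR1 window, 132 bases before.

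In U251, CCN2 was at 277, 296 and 289 TPM in Untreated, 105, 89.2 and 104 at D3, 194, 197 and 168 at D14, 131, 126 and 127 at D28, and 106, 108 and 107 at D28WO. Each other library lay below Untreated, and the D14 libraries lay between Untreated and the rest. CCN2 fell by 1.53 at D3 (-1.68 to -1.38, adjusted p = 1.12e-09), by 0.62 at D14 (-0.77 to -0.48, adjusted p = 3.06e-05), by 1.16 at D28 (-1.31 to -1.01, adjusted p = 1.69e-08) and by 1.42 at D28WO (-1.57 to -1.27, adjusted p = 3.39e-09). These differences correspond to 0.345, 0.649, 0.446 and 0.372 of the Untreated mean TPM. It rose by 0.90 from D3 to D14 (0.75 to 1.05, adjusted p = 7.94e-07), fell by 0.53 from D14 to D28 (adjusted p = 9.33e-05), and fell by 0.26 from D28 to D28WO (-0.41 to -0.11, adjusted p = 0.0133). With size factors the last difference was -0.18 and did not pass (adjusted p = 0.0811). CCN2 and TGFB2 of U251 were thus no nearer to Untreated at D28WO than at D28. The glial filament gene GFAP of U251 was also lower than in Untreated in each group, although it was higher at D28WO than at D28, where CCN2 was lower: it went from 1258 ± 46.3 TPM in Untreated to 342 ± 36.6 at D3, 713 ± 92.1 at D14, 243 ± 18.2 at D28 and, after withdrawal, 573 ± 2.42. Of the 6 glioma markers 5 were tested and 5 were lower at D3, and their summed level was 3505 to 3600 TPM in Untreated, 1457 to 1770 at D3, 2467 to 2840 at D14, 1559 to 1768 at D28 and 2060 to 2122 at D28WO, with OLIG2 at 0 to 1.33 TPM throughout. The part of these genes in the result was not tested.

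CCN2 in U87 was at 54.0, 62.1 and 64.1 TPM in Untreated, 38.3 and 49.6 at D3, 51.2 and 53.7 at D14, 52.8, 48.8 and 43.9 at D28, and 41.7, 36.9 and 41.8 at D28WO. Each IFN-γ library of U87 lay below each Untreated library. The fall passed at D3, by 0.45 (-0.73 to -0.17, adjusted p = 0.0333), and at D28WO, by 0.57 (-0.82 to -0.32, adjusted p = 0.0019). The differences at D14 and D28 were -0.19 (-0.47 to 0.09, adjusted p = 0.41) and -0.30 (-0.55 to -0.05, adjusted p = 0.0752), and that at D28 passed with quantile normalization (-0.43, adjusted p = 0.0272) and size factors (-0.49, adjusted p = 0.0183). The D3 call ended without D3 replicate 2 (-0.27, adjusted p = 0.294) or Untreated replicate 2 or 3 (0.0702 and 0.0976), with a replicate block (0.055) and without the D14 and D28WO libraries (0.09).

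The genes whose pattern was most like that of each member were found by Pearson's r of log2(TPM + 1), centered on each line's mean, over the 28 libraries and among 20473 genes tested in both lines. These libraries share their groups, so r describes how patterns over groups resemble each other. CCN2 was most like PTRHD1 (r = 0.946) and TMEFF2 (0.945), SMAD7 most like ABTB3 (0.925) and CALHM5 (0.912), and TGFBR2 most like LSM3 (0.894) and MYBL1 (0.891). INHBA was most like E2F7 (0.878) and ZNF726 (0.853), TGFB3 like ENSG00000269706 (0.866) and RPP25 (0.863), and SMAD6 like SHB (0.859) and SPRY1 (0.853). For TGFB1 the nearest were TNFRSF1A (0.838) and ID3 (0.83), for TGFB2 TBC1D8B (0.832) and GLT8D2 (0.823), and for TGFBR1 ACBD3 (0.766) and MIGA1 (0.756). Within a line r of these pairs ranged from 0.483 to 0.941 in U87 and from 0.451 to 0.967 in U251: TGFB3 and RPP25 had 0.922 in U87 and 0.451 in U251, and TGFB2 and TBC1D8B 0.483 and 0.937. Among the members themselves SMAD6 and SMAD7 had the highest r, 0.769, followed by TGFBR2 with SMAD6 (0.641), and the lowest was that of TGFB1 with TGFB2 (-0.55).

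The rest of the pathway was covered by 63 further genes, of which 60 were tested in U87 and 58 in U251. In U87, 10 were higher and 7 lower at D3, 4 and 1 at D14, 14 and 9 at D28, and 18 and 14 at D28WO, each against Untreated. In U251 the counts were 15 and 18 at D3, 15 and 11 at D14, 21 and 17 at D28, and 13 and 14 at D28WO. Their median difference was 0.02, 0.11, 0.14 and 0.07 in U87 and 0.06, 0.08, 0.10 and 0.06 in U251, beside the medians of all genes given above. The shares higher and lower were 16.7% and 11.7% at D3, 6.67% and 1.67% at D14, 23.3% and 15% at D28 and 30% and 23.3% in D28WO for U87, against 12.4% and 4.28%, 4.14% and 1.02%, 17.2% and 6.55%, and 28.6% and 13.4% of all genes. For U251 they were 25.9% and 31%, 25.9% and 19%, 36.2% and 29.3%, and 22.4% and 24.1%, against 24.9% and 16%, 13.8% and 7.31%, 25.9% and 14.7%, and 14.3% and 13.4%. At D28, the time used for the lists below, the background is thus 17.2% higher and 6.55% lower in U87 and 25.9% and 14.7% in U251, and lists of so few genes are given as counts without a test. The list counts are those of the main fit. In U87 at D28, 23 of the further genes passed in that fit, 9 with the compared groups alone and 12 without the D14 and D28WO libraries.

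Among 7 tested other ligands, 2 were higher at D28 and none lower in U87, and 5 were higher and 1 lower in U251. INHBE, which encodes an activin subunit known from liver, rose in U87 from 2.75 ± 0.697 TPM (SD, n = 3) in Untreated to 14.8 ± 0.770 at D3 (n = 2), 21.7 ± 7.56 at D28 and 65.9 ± 3.47 at D28WO, while its 5.49 ± 0.638 TPM at D14 (n = 2) did not pass against Untreated (adjusted p = 0.0913). In U251 INHBE rose from 1.05 ± 0.619 TPM to 29.8 ± 6.31 at D3, 5.05 ± 2.29 at D14, 25.5 ± 5.63 at D28 and, after withdrawal, 27.4 ± 5.52. GDF15, a stress-responsive ligand, rose in U251 from 41.2 ± 7.28 to 136 ± 5.63 TPM at D3 and 169 ± 10.1 at D28, and in U87 from 82.8 ± 12 to 263 ± 20.2 TPM at D28WO. GDF11 fell in U251 by 2.35 at D3, from 44.1 ± 3.86 to 7.82 ± 0.371 TPM (adjusted p = 8.59e-09), and fell in U87 by 1.29 at D28WO (adjusted p = 0.000206). BMP7 was listed at 0 in the Untreated libraries of U251 and at 2.73 ± 1.21 TPM at D28.

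Of the 10 other receptors, 1 was higher and 2 lower at D28 in U87, and 2 and 1 in U251. BMPR1B, a type I receptor for BMPs, fell in U251 from 31.7 ± 2.74 TPM to 15.4 ± 2.64 at D3 and 16.4 ± 1.97 at D28, and in U87 from 6.63 ± 2.90 to 2.79 ± 0.803 at D28. ENG, a coreceptor, fell in U87 by 0.26 at D28 (adjusted p = 0.0348) and rose in U251 by 0.51 (adjusted p = 0.00172). In U87 the D28 call of ENG ended without any 1 of the Untreated libraries or D28 replicate 1 or 2 (adjusted p = 0.0642, 0.0846, 0.0768, 0.118 and 0.0572), and that of BMPR1B without Untreated replicate 2 or D28 replicate 1 or 3 (0.0734, 0.0616 and 0.0673). Both ended in the fit without the D14 and D28WO libraries (adjusted p = 0.0737 for ENG and 0.082 for BMPR1B). Of the 6 receptor-regulated and common SMADs, SMAD3, which carries the TGF-β signal, fell in U251 from 133 ± 8.19 TPM to 82.0 ± 13.7 at D3 and 74.1 ± 3.78 at D28, and in U87 at D28WO from 72.3 ± 11 to 39.0 ± 5.20 TPM. SMAD9, of the BMP branch, rose in U251 at D3 by 1.10 (adjusted p = 5.4e-05) and fell in U87 at D28WO by 1.20 (adjusted p = 0.000585).

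Of 8 tested genes that store or release latent TGF-β, 5 were lower and 2 higher in U251 at D28. ITGB8 and ITGAV, the chains of an integrin that releases the latent ligand, fell from 95.7 ± 3.33 to 26.8 ± 1.99 TPM and from 140 ± 2.15 to 69.2 ± 6.36 TPM at D28, with differences of -1.80 and -1.01 (adjusted p = 7.61e-10 and 1.71e-07). LTBP3 and LTBP4, latent TGF-β binding proteins, fell by 1.08 and 0.85 (adjusted p = 7.44e-06 and 2.27e-05). In U87, 3 of 9 were lower and 2 higher at D28: THBS1, which can release latent TGF-β, fell from 58.3 ± 4.80 to 19.5 ± 4.76 TPM, while LRRC32, which holds it at the cell surface, rose from 7.78 ± 4.73 to 19.6 ± 1.3 TPM, a call that ended with the compared groups alone (adjusted p = 0.0753). LTBP4, lower in U251, rose in U87 by 0.58 at D28 and 0.74 at D28WO (adjusted p = 0.0129 and 0.00143).

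Inhibitors of the pathway rose in 6 and fell in 1 of 12 tested in U87 at D28, and rose in 2 and fell in 4 of 11 in U251, or 50% and 8.33% in U87 and 18.2% and 36.4% in U251. FST, follistatin, which traps activins, had the largest difference from Untreated among the genes of the pathway: in U251 it went from 3.10 ± 1.26 TPM to 102 ± 6.26 at D3, 32.1 ± 4.55 at D14, 147 ± 3.84 at D28 and, after withdrawal, 31.5 ± 3.22, or 4.69, 3.05, 5.22 and 3.03 on the log2 scale (adjusted p = 1.19e-10, 3.53e-08, 3.58e-11 and 1.59e-08). FST in U87 rose from 19.3 ± 4.19 to 118 ± 5.84 TPM at D28WO. DCN, decorin, a proteoglycan that binds TGF-β, rose in U87 from 7.19 ± 2.29 to 62.7 ± 0.808 TPM at D3 and 53.3 ± 9.59 at D28. Its mean was 23.2 TPM at D14 and 32.3 TPM at D28WO, differences of 1.56 and 2.06 (adjusted p = 0.00957 and 2.88e-05). The D14 call ended with the compared groups alone. TGIF1, a corepressor of SMADs, rose in both lines, to 214 ± 11.1 TPM in U87 at D28WO and 156 ± 4.39 in U251 at D28, from 69.9 ± 9.94 and 72.1 ± 5.43 TPM, and LDLRAD4, which keeps SMADs from the receptor, fell in U251 from 45.7 ± 8.19 to 12.8 ± 2.21 TPM at D28WO.

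Of 16 other target genes tested in U251, 8 were higher and 5 lower at D28, and in U87, 2 and 2, or 50% and 31.2% in U251 and 12.5% each way in U87. COL1A2, a collagen chain, fell in U251 from 324 ± 8.66 TPM to 123 ± 10.1 at D3 and 167 ± 14.4 at D28. TAGLN rose in U251 at D3 by 1.96 (adjusted p = 6.44e-06). In U87 the lower targets were most numerous at D28WO, with 7 of 16 lower and 3 higher (43.8% and 18.8%, against 13.4% and 28.6% of all genes). CCN1, a matrix protein gene related to CCN2, rose in U87 by 0.51 at D3, 0.70 at D28 and 0.63 at D28WO (adjusted p = 0.0048, 0.000201 and 0.000132). The call of CCN1 at D3 ended with size factors and with the compared groups alone (adjusted p = 0.069 and 0.0572). In U87 at D28WO, COL1A1, another collagen chain, fell from 281 ± 21.5 to 129 ± 17.2 TPM, and ID1, a target of the BMP branch, from 282 ± 26.1 to 156 ± 5.24 TPM.

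**Figure D5:**
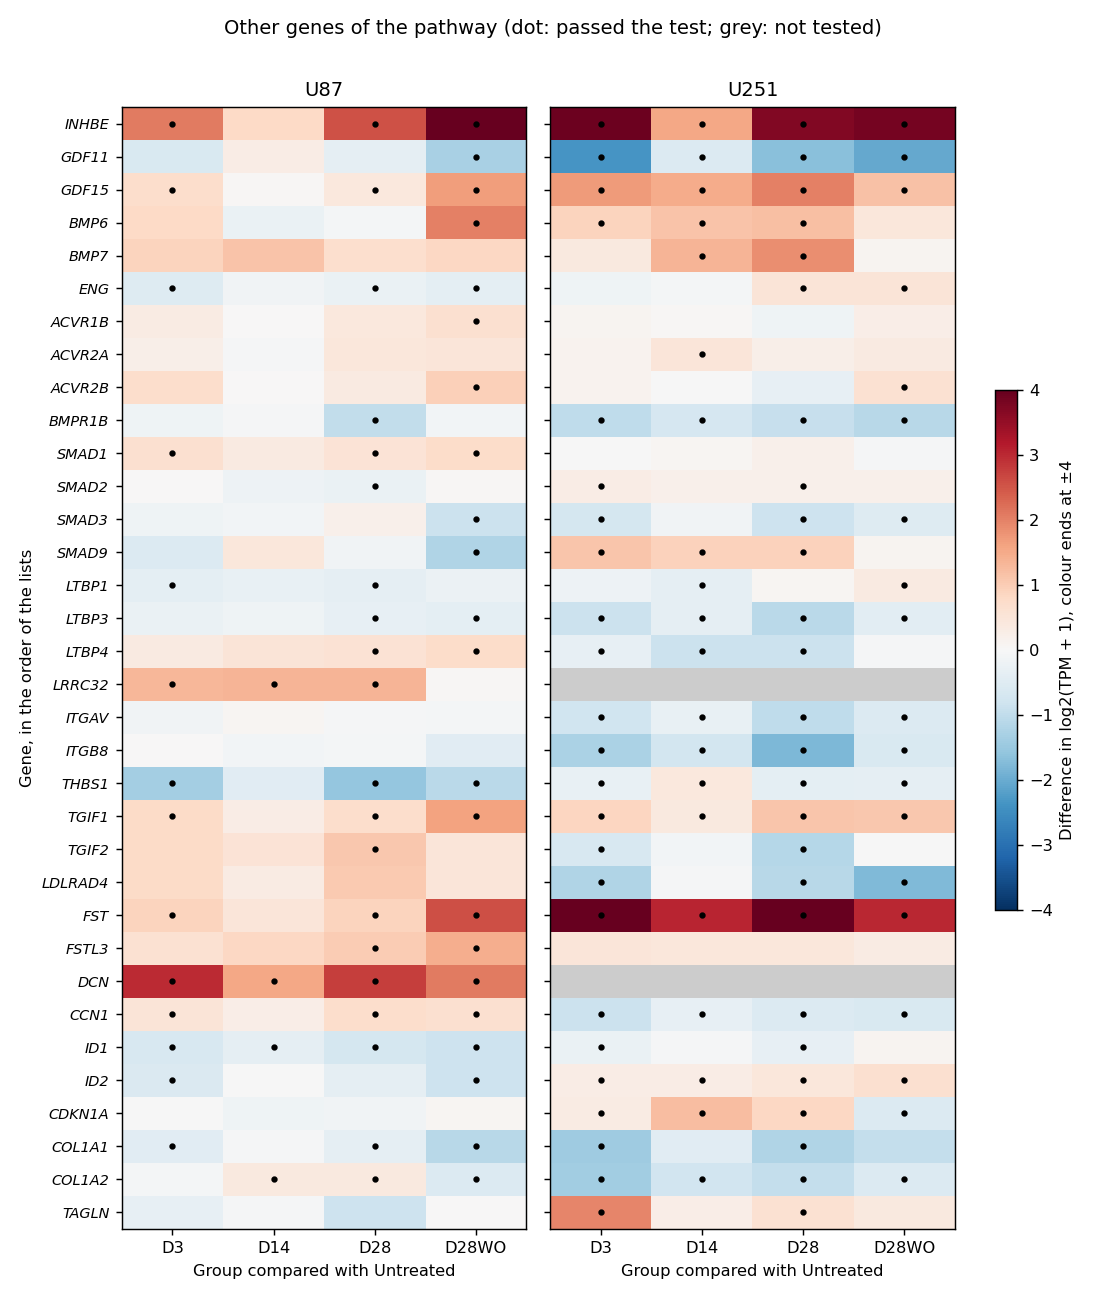
Difference in log2(TPM + 1) from Untreated (color, ending at -4 and 4) of named genes of the pathway other than the 9 members (rows) by group (columns) in U87 and U251; a dot marks a gene that passed and grey one that was not tested. FST of U251 reaches 5.22 at D28, and ITGB8 of U251 lies at -1.80.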

How the data were processed

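RNA of U87 and U251 was sequenced as paired reads of 150 bp. The submitters' processing notes name FastQC, Trim Galore, STAR, featureCounts and edgeR with GRCh38. The authors deposited 1 TPM table per line; how TPM was computed is not stated, TPM keeps no depth, and a count model was not used. Of the U87 table, 2 columns with the same name were left out. The 28 libraries had 24223 to 30246 genes above 0, and no pair held identical values. Groups came from the labels, whose replicates the study describes as independent.

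Values were taken as log2(TPM + 1) for genes that averaged 0.5 TPM or more in a line and fitted with limma 3.58.1 (R 4.3.3), with a trend, all 5 groups of a line in 1 fit, moderated tests and Benjamini-Hochberg adjustment over all genes tested. The study's methods also required an absolute log2 fold change over 1, which was tried as an alternative. There were 7 comparisons per line. The code was tested on simulated data. The members and gene lists were chosen with earlier results of these data known. Some genes and a motif are not reported here and were left out of the lists, not of the fits. Other genes of the pathway were named, up to 4 per list and line, by the largest difference from Untreated among those that passed and did not overlap with Untreated in that line. Promoters came from RefSeq (GRCh38.p14) and gene positions from GENCODE 44; motifs were counted with Python 3.11.15. Alternatives were another pseudocount, 2 other filters, 2 scalings, a fit of the compared groups alone, a replicate block, array weights, and leaving out each library. The same-numbered libraries did not deviate together (correlations -0.058 to 0.0472 in U87 and -0.0375 to 0.048 in U251), so replicate numbers were not taken as pairs.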

Additional observations from a re-analysis of the deposited data

Results flagged for a closer look

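For 11 comparisons with Untreated, each library of one line lay above its Untreated libraries and each of the other line below, and the difference between the lines was not tested because their tables were normalized separately. For D3, D14, D28 and D28WO in turn, this held for 2, 2, 3 and 4 of the 9 members, and for 6.77%, 6.41%, 6.46% and 6.22% of the 20473 genes tested in both lines. Values are differences in log2(TPM + 1), U87 before U251. TGFB2, a ligand, was at 0.57 and -0.15 at D3, 0.36 and -0.58 at D28, and 0.47 and -0.74 at D28WO. TGFB1 was at -0.46 and 0.15 at D28WO. INHBA, the activin A subunit, was at -0.45 and 1.31 at D14, and at -0.71 and 1.10 at D28. The receptor gene TGFBR2 was at -0.60 and 0.54 at D3, and at -0.30 and 0.60 at D28. TGFBR1 was at 0.17 and -0.22 at D14, and at 0.16 and -0.13 at D28WO. SMAD6 was at -0.70 and 0.50 at D28WO. Of these, both lines passed for TGFB2 at D28 and D28WO, INHBA at D28 and TGFBR2 at D3, and the upward TGFB2 differences of U87 did not pass under other scalings.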

How the results depend on the processing

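None of the members' differences that passed, and none of 122 differences of named other pathway genes from Untreated, reversed its direction under the alternatives run. The marker genes and the interferon-responsive genes were not recomputed. The number of members that passed moved as follows, and the cause was not tested. In U87 at D3 it was 5, with 3 under quantile normalization, with median-ratio size factors, with a replicate block and without the libraries of D14 and D28WO (added after seeing the data), 1 with the compared groups alone, and 2 to 5 on leaving out 1 library (2 without D3 replicate 2). At D28 it was 4, with 2 under quantile normalization and with the compared groups alone, and 2 to 4 without 1 library (2 without Untreated replicate 3 or D28 replicate 1 or 2). From D3 to D14 it was 2, with 1 with size factors, 0 with the compared groups alone and 0 to 2 without 1 library (0 without D14 replicate 2). From D14 to D28 it was 0, with 1 under a filter at 1 TPM, quantile normalization and array weights, and 0 to 1 without 1 library (1 without D28 replicate 3). From D28 to D28WO it was 4, with 7 under quantile normalization and 3 to 4 without 1 library. In U251 at D14 it was 5, and 3 to 5 without 1 library (3 without Untreated replicate 2), and from D3 to D14 it was 2, with 1 with the compared groups alone and 1 to 4 without 1 library (4 without D3 replicate 2, 1 without D14 replicate 1). Requiring also an absolute log2 fold change over 1 left 0 members at D3, 0 at D28, 1 at D28WO, 1 from D3 to D14 and 2 from D28 to D28WO in U87, and 2 at D3, 1 at D14, 4 at D28, 1 at D28WO, 0 from D3 to D14, 0 from D14 to D28 and 1 from D28 to D28WO in U251.

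For the other pathway genes the same alternatives were added after seeing the data, and 85 of the 122 named differences kept their call under each alternative. In U87 the number that passed was 17 at D3, with 6 with the compared groups alone, 7 without the libraries of D14 and D28WO and 6 to 17 without 1 library (6 without D3 replicate 2, 11 without D3 replicate 3). At D14 it was 5, with 2 with no filter, 1 with size factors, 0 with the compared groups alone and 0 to 6 without 1 library (0 without D14 replicate 2, 1 without D14 replicate 3 or Untreated replicate 1, 3 without Untreated replicate 3). At D28 it was 23, with 9 with the compared groups alone, 12 without the libraries of D14 and D28WO and 13 to 20 without 1 library (13 without Untreated replicate 3). An absolute log2 fold change over 1 left, for D3, D14, D28 and D28WO in turn, 4, 2, 6 and 12 in U87 and 13, 7, 14 and 7 in U251.

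The replicate block ended the U87 calls of INHBA and CCN2 at D3 and of TGFB1 from D28 to D28WO (adjusted p = 0.0501, 0.055 and 0.058) and added TGFBR2 at D28 (0.0478). The replicate numbers did not pair the libraries: none of the 23 same-numbered pairs of U87 or the 30 of U251 had a correlation of deviations over 0.1. Over single members and comparisons, quantile normalization ended 9 calls and added 10, size factors ended 9 and added 7, leaving out 1 library ended 41 and added 10, and a pseudocount of 0.1 TPM changed none. Depth is unknown from TPM, so the precision of low levels such as INHBA and TGFB3 cannot be stated.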
